A study of Mus musculus with 4 samples.

Results

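The genes described here are 7 transcription factors best known for driving epithelial-mesenchymal transition (EMT), namely Snai1, Snai2, Twist1, Twist2, Zeb1, Zeb2 and Prrx1. All are protein coding. The genes were listed by name, and all 7 were found by symbol among the 54532 genes of the count table and in the table of TPM, a level per transcript length scaled to the library. RNA was sequenced from cranial neural tubes dissected from mouse embryos at embryonic day 10.5, with 1 library per embryo. The 2 DCKO embryos were homozygous for floxed Lats1 and floxed Lats2 and carried the transgene E2f1 Tg(Wnt1-cre)2Sor, in which Wnt1 regulatory sequences drive Cre in the dorsal neural tube and the neural crest it gives rise to. The 2 Control embryos lacked that transgene, and the labels do not say which Lats1 and Lats2 alleles they carried. The series title asks how Lats1 and Lats2, kinases of the Hippo pathway that restrain the coactivator YAP, bear on EMT directed by TGF-beta in the dorsal cranial neuroepithelium.

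In EMT, cells of an epithelial sheet dissolve their junctions, lose apical-basal polarity and become motile. SNAI1 and SNAI2 are zinc finger repressors, and ZEB1 and ZEB2 are zinc finger and homeodomain repressors. All of them bind E-boxes, short DNA elements with the core CANNTG, in genes such as Cdh1, which encodes E-cadherin. TWIST1 and TWIST2 are basic helix-loop-helix proteins that bind E-boxes as dimers with E proteins. PRRX1 is a paired-related homeodomain protein of mesenchyme. In the embryonic head these factors take part in the departure of neural crest from the dorsal neural tube, and several stay on in the cranial mesenchyme that crest and mesoderm form.

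Of the 7 factors, 5 rose in DCKO and 0 fell. Snai2 rose 4.85-fold, Prrx1 3.77-fold, Twist2 3.38-fold, Twist1 3.18-fold and Snai1 2.43-fold in the edgeR quasi-likelihood fit over all 19207 tested genes. Zeb1 and Zeb2, the most abundant members in Control, did not pass the test. Over all tested genes, 8.93% were called higher and 8.11% lower at an adjusted p under 0.05. The median log2 fold change was 1.67 over the 7 factors and 0.03 over all tested genes. For 5 of the 7 both DCKO libraries lay above both Control libraries in CPM, read counts scaled to library size with TMM factors, as for 33.6% of tested genes, and for 2 both lay below, as for 32.9%. At an unadjusted p under 0.05 the counts were the same, 5 higher and 0 lower, beside 18.5% of all tested genes higher and 17.4% lower. In a whole tissue, more cells of a type and more RNA per cell cannot be told apart. With 2 embryos per group, p-values measure the spread between these few embryos.

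The calls of the 5 factors that rose depended on the Control libraries. Without Control 1 or without Control 2, 0 of the 7 passed edgeR, when 1.2% and 0.761% of all genes were called higher. Their log2 fold changes stayed within 1.25 to 2.41 in those fits, whose spread rests on the DCKO pair alone. Without DCKO 1 or without DCKO 2, all 5 passed, beside 10.9% and 12.8% of all genes called higher. The same 5 passed with DESeq2 (13.5% of all genes higher), with DESeq2 size factors (8.88%), upper-quartile scaling (9.52%) or library totals (6.35%) in edgeR, without the low-count filter (5.21%) and with a replicate block (5.22%). On the authors' TPM, limma called 4 factors with a minimum mean TPM of 1 (6.75% of genes higher at a pseudocount of 1, 5.24% at 0.1), Snai1 being the exception, and 0 without that minimum (0.00326%).

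The libraries held 41798361 to 55137810 counts. In Control 1, Control 2, DCKO 1 and DCKO 2, Lats1 had 44.2, 65.6, 30.0 and 29.7 CPM (log2 fold change -0.88, SE 0.23, edgeR adjusted p 0.0538) and Lats2 had 26.7, 13.3, 21.2 and 35.3 CPM (0.50, SE 0.41, adjusted p 0.426). Cre acts in part of the tissue and the deleted exons are not given in the sources used here, so neither value checks the genotype. The neural tube marker Sox2 was present in all libraries, at 142, 144, 74.8 and 78.9 CPM in the same order. It was called lower (log2 fold change -0.89, SE 0.15, edgeR adjusted p 0.0208). Among 20 neural progenitor markers, which include Sox2, 13 fell and 0 rose. Some were nearly absent in DCKO, with Olig3 at 1063, 1203, 19 and 24 counts and Dbx2 at 154, 119, 0 and 8. Xist was at 173 and 154 CPM in Control and at 0.200 and 0.595 CPM in DCKO, so embryo sex and genotype cannot be told apart, nor can Cre and loss of Lats1 and Lats2. Genes of the ribosomal RNA cluster on chromosome 17 took 12.4% to 13.2% of Control counts and 24.7% to 30.3% of DCKO counts. Without these genes, or without X and Y genes, the same 5 factors were called, beside 8.91% of all genes in each case.

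The stretches upstream of 4 of the 5 factors that rose together are shown to let their start sites be compared. They are the 250 bases before the RefSeq start (GRCm38.p6), 5′ to 3′ on the gene's strand. Capitals mark matches on either strand to CANNTG (the E-box), GGAATG (the core bound by TEAD factors, the DNA-binding partners of YAP) or CAGAC (a SMAD-binding element).
Snai1, chr2:167537945-167538194, plus strand: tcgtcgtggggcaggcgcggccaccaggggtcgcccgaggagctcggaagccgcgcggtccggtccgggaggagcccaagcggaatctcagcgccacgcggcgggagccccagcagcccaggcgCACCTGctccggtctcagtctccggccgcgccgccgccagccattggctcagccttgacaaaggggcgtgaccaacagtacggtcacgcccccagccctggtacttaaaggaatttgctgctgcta
Twist1, chr12:33957421-33957670, plus strand: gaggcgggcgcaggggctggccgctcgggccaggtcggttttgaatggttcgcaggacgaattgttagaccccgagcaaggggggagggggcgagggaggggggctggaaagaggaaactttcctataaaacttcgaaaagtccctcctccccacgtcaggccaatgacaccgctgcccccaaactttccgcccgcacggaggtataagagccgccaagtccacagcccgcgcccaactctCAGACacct
Twist2, chr1:91801211-91801460, plus strand: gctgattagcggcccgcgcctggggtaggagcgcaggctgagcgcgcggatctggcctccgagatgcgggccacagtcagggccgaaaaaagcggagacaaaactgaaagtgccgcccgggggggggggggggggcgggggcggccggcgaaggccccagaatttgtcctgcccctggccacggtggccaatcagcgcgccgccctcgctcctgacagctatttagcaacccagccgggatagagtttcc
Prrx1, chr1:163313651-163313900, minus strand: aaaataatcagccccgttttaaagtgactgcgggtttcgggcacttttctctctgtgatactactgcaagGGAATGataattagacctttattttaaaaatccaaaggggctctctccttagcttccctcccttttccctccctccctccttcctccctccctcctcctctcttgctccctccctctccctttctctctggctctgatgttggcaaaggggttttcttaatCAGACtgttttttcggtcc

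The Snai1 window held a single E-box, CACCTG, from 126 to 121 bases before the start. It reads CAGGTG on the other strand, the form preferred by Snail and Zeb factors, and is both a CANNTG and a CAGGTG match. The Prrx1 window held GGAATG from 180 to 175 bases before the start and CAGAC from 19 to 15 bases before it. By the gene coordinates given below, Prrx1 starts at 163313710, inside this window, and the CAGAC match lies within the gene. The Twist1 window held CAGAC from 9 to 5 bases before the start, and the Twist2 window held 0 matches to these motifs. None of the Twist1, Twist2 and Prrx1 windows held CANNTG. Of 4 Zeb2 start sites in the table, 1 held GGAATG and 0 held the other motifs. No window of Snai2 or Zeb1 was examined, so the motif matches cover 5 of the 7 factors. Windows of the same length held CANNTG at 66.2%, CAGGTG at 17.2%, GGAATG at 12.6% and CAGAC at 42.2% of 32851 mouse start sites, so each of these matches is common. A match describes letters in the window, not binding.

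Snai1 (ENSMUSG00000042821, chromosome 2, 167538195 to 167542814 on GRCm38) encodes the Snail repressor of Cdh1. It had 11.8 CPM in both Control 1 and Control 2, 24.1 in DCKO 1 and 33.4 in DCKO 2. Control libraries were nearly equal, while DCKO 2 stood above DCKO 1, and the groups did not overlap. The mean went from 11.8 ± 0.0506 to 28.7 ± 6.61 CPM (SD, n = 2), a log2 fold change of 1.28 (SE 0.23, edgeR adjusted p 0.0230). On the authors' TPM, limma gave 0.97 to 1.02 for Snai1 on the log2(TPM + pseudocount) scale, and it did not pass.

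Snai2 (ENSMUSG00000022676, chromosome 16, 14705852 to 14709385) encodes Slug, a marker of premigratory and migrating neural crest. It had 1.85 and 2.29 CPM in Control 1 and Control 2, and 11.3 and 8.82 in DCKO 1 and DCKO 2. In counts this was 116 reads in each Control library against 451 and 326, so the gene was scarce but counted in every library. Here DCKO 1 was the higher DCKO library, the opposite order from Snai1. The log2 fold change of 2.28 (SE 0.30, edgeR adjusted p 0.0132) was the largest of the 7. Snai2 made up 11.1% and 13.5% of the summed TPM of Snai1 and Snai2 in Control, and 27.3% and 17.4% in DCKO.

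Twist1 (ENSMUSG00000035799, chromosome 12, 33957671 to 33959829) encodes a factor needed in the head mesenchyme for closure of the cranial neural tube. It had 23.8 and 18.8 CPM in Control 1 and Control 2, and 75.7 and 59.7 in DCKO 1 and DCKO 2. Both DCKO libraries were far above both Control libraries, the lower of them 2.51 times the higher Control. The log2 fold change was 1.67 (SE 0.21, edgeR adjusted p 0.0125).

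Twist2 (ENSMUSG00000007805, chromosome 1, 91801461 to 91848028) encodes the close relative of TWIST1 also called Dermo1, known from mesenchyme and dermis. It had 3.39 and 2.85 CPM in Control 1 and Control 2, and 10.4 and 10.7 in DCKO 1 and DCKO 2. In CPM its DCKO values were closer to each other than those of the other factors that rose. This did not hold in the authors' TPM. There the log2 ratio of DCKO 2 over DCKO 1 was 0.34 for Twist2, -0.10 for Twist1, -0.12 for Snai2, -0.05 for Prrx1 and 0.71 for Snai1. The log2 fold change was 1.76 (SE 0.26, edgeR adjusted p 0.0165). Twist2 kept a similar share of the summed TPM of Twist1 and Twist2, at 14.5% and 15.1% in Control and 13.4% and 17.4% in DCKO. The overlapping models Gm29100 (antisense) and Gm29101 (within an intron) had 0 to 20 counts per library against 144 to 417 for Twist2.

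Prrx1 (ENSMUSG00000026586, chromosome 1, 163245119 to 163313710) had 14.3 and 14.2 CPM in Control 1 and Control 2, and 61.6 and 46.0 in DCKO 1 and DCKO 2. Its Control values were almost identical and DCKO 1 was again the higher DCKO library. The log2 fold change was 1.92 (SE 0.20), with the smallest edgeR adjusted p of the 7, 0.00919. Overlapping models Gm20471, Gm26523 and Gm37644 had 0 to 32 counts per library.

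**Figure D1:**
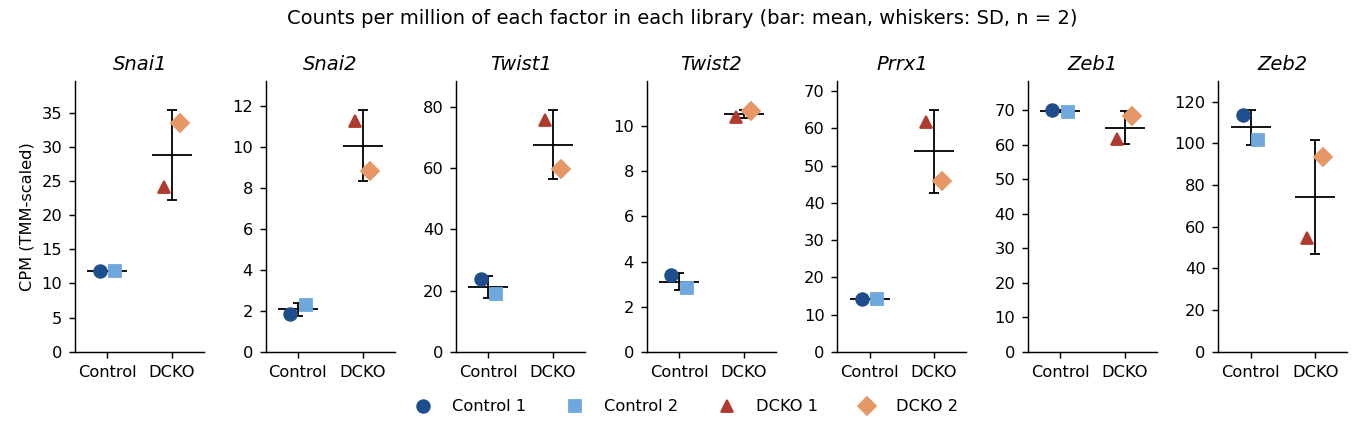
TMM-scaled CPM (vertical axes from 0, a separate scale per gene) of the 7 factors in Control 1, Control 2, DCKO 1 and DCKO 2, with the group mean as a bar and the SD as whiskers (n = 2). The DCKO libraries stand apart above Control for Snai1, Snai2, Twist1, Twist2 and Prrx1, while for Zeb2 DCKO 1 is low at 54.8 and DCKO 2 is near Control at 93.5.

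The Zeb genes went another way. Zeb1 (ENSMUSG00000024238, chromosome 18, 5591860 to 5775467) had 69.9 and 69.4 CPM in Control 1 and Control 2, and 61.5 and 68.4 in DCKO 1 and DCKO 2. DCKO 2 was barely below the Control libraries. The log2 fold change was -0.10 (SE 0.15, edgeR adjusted p 0.677), and it was between -0.45 and -0.03 under all 15 alternatives, none of which called it. In the authors' TPM the groups overlapped, at 33.9 and 40.8 in Control and 35.2 and 34.9 in DCKO. The overlapping models Gm10125, Gm16147 and Gm22709 had 0 to 88 counts per library against 2460 to 4377 for Zeb1.

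Zeb2 (ENSMUSG00000026872, chromosome 2, 44983632 to 45117395) encodes a SMAD-interacting repressor that is expressed in neural progenitors and young neurons as well as in neural crest. It had 114 and 102 CPM in Control 1 and Control 2, 54.8 in DCKO 1 and 93.5 in DCKO 2. The DCKO libraries differed more from each other than DCKO 2 did from Control. The log2 fold change was -0.54 (SE 0.28, edgeR adjusted p 0.225). Without DCKO 2 it was -0.98 and passed (adjusted p 0.0189), when 12.5% of all genes were called lower, and without DCKO 1 it was -0.21 (adjusted p 0.454), so the size of the difference rests on which DCKO embryo is counted. The antisense RNA Zeb2os overlaps the first part of Zeb2 and had 6.47, 6.46, 6.90 and 5.55 CPM in Control 1, Control 2, DCKO 1 and DCKO 2 (log2 fold change -0.05, adjusted p 0.904). Mir5129, Gm27404 and Gm27645, also within Zeb2, had 1 to 2 counts per library. Whether strand was used in counting is not given in the sources used here, so reads in the overlap cannot be assigned with certainty.

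**Figure D2:**
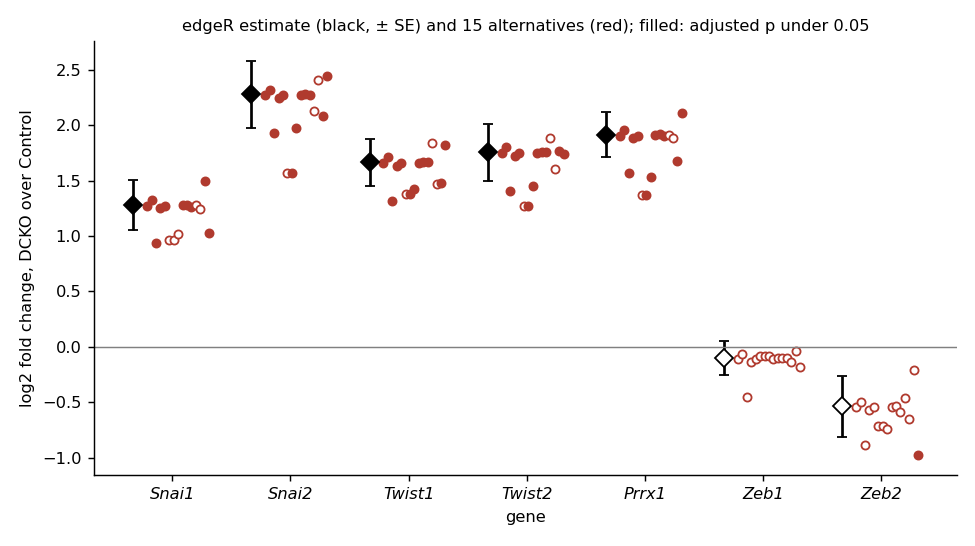
Log2 fold change of DCKO over Control (vertical axis) for each factor, from edgeR (black diamond, whiskers ± SE) and from 15 alternatives (red circles), filled where the adjusted p was under 0.05. The 5 factors that rose lie between 0.93 and 2.44 in all fits, Zeb1 between -0.45 and -0.03 with no filled symbol, and Zeb2 has a single filled symbol at -0.98, the fit without DCKO 2.

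Levels can be compared between genes only per transcript length, and the authors' TPM gives that. In Control the order ran from Zeb2 (50.4 and 38.4 TPM) and Zeb1 (33.9 and 40.8) through Twist1 (27.4 and 17.7) and Snai1 (13.7 and 11.1) to Prrx1 (4.93 and 4.10), Twist2 (4.64 and 3.155) and Snai2 (1.70 and 1.73). Zeb2 and Zeb1 changed places between the Control libraries, and Prrx1 and Twist2 overlapped, so neither of these neighbours differed beyond the spread. In DCKO, Twist1 led at 61.2 and 57.1 TPM in DCKO 1 and DCKO 2. It was followed by Zeb1 (35.2 and 34.9), Zeb2 (18.4 and 37.8) and Snai1 (19.5 and 32.1), whose order differed between the libraries, then by Prrx1 (13.4 and 12.98), Twist2 (9.48 and 12.01) and Snai2 (7.34 and 6.77). Zeb1 and Zeb2 together made up 61.7% and 67.7% of the summed TPM of the 7 factors in Control and 32.6% and 37.6% in DCKO, where Twist1 and Twist2 made up 42.9% and 35.7%, from 23.5% and 17.8%.

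On the log2 scale, the ratio of group means in TPM lay below that in CPM by 0.22 to 0.37 for the 5 factors that rose. The median of this difference over all tested genes was -0.23, so most of the gap is shared with the other genes.

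**Figure D3:**
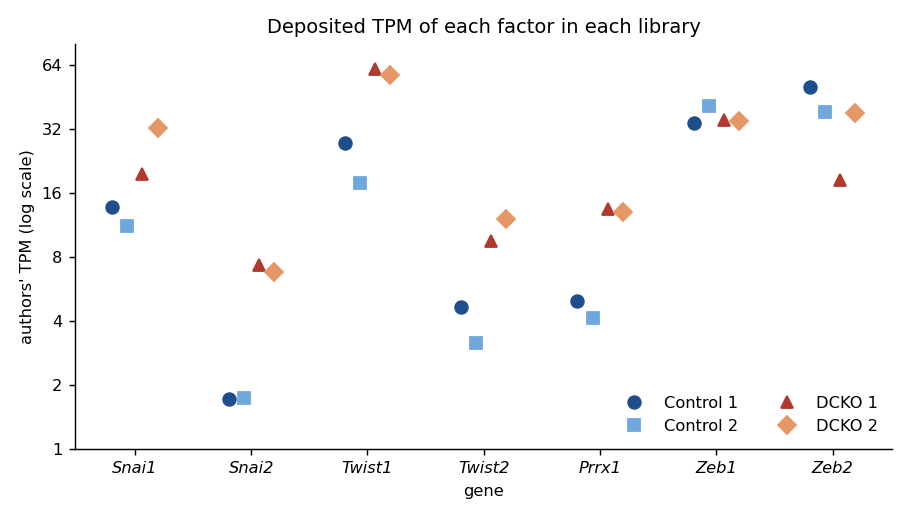
The authors' TPM (vertical axis, log scale) of each factor in Control 1, Control 2, DCKO 1 and DCKO 2. Zeb2 and Zeb1 lead in Control at 33.9 to 50.4 TPM and Twist1 leads in DCKO at 57.1 to 61.2 TPM.

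In the authors' deposited table of differential expression, 5 of the 7 factors were higher at a false discovery rate under 0.05, with 15.6% of its 12574 genes higher and 13.2% lower. In the authors' deposited table the log2 fold changes were 2.33 for Snai2, 1.97 for Prrx1, 1.81 for Twist2, 1.72 for Twist1 and 1.34 for Snai1. In the authors' deposited table Zeb1 had -0.05 and Zeb2 -0.48, with false discovery rates of 0.925 and 0.246. These come from the same 4 libraries and are not independent of the counts.

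Of 13 relatives of Snail, Twist and Prrx, 8 were tested, 1 rose and 2 fell, beside 8.93% of all tested genes higher and 8.11% lower. The median log2 fold change of the relatives was 0.08. Over the alternatives it ranged from -0.42 (on TPM with a minimum mean of 1) to 1.07 (without the low-count filter, with 12 tested). It was -0.26 with library totals, when the median of all tested genes was -0.32. It was 0.50 without Control 2, 0.31 without DCKO 1 and -0.16 without DCKO 2. Prrx2, the paralog of Prrx1 in craniofacial mesenchyme, rose from 13.5 and 14.1 CPM in Control to 46.1 and 46.8 in DCKO (1.75, SE 0.16, edgeR adjusted p 0.00761). Prrx2 held a near constant 78.2% to 80.2% of the summed TPM of Prrx1 and Prrx2 in the 4 libraries. Scrt1 and Scrt2, Snail-related zinc finger genes of newborn neurons, fell by 3.58 (SE 0.70, edgeR adjusted p 0.0283) and 3.14 (SE 0.57, adjusted p 0.0253) on the log2 scale. Scrt1 went from 16.2 and 28.8 CPM to 2.999 and 0.731, and Scrt2 from 14.4 and 25.8 to 3.37 and 1.19, each lowest in DCKO 2. In the same libraries 7 of 20 neuron markers fell and their summed level went from 1613 and 1990 CPM to 1094 and 431, also lowest in DCKO 2, and its part in the fall of Scrt1 and Scrt2 was not tested. Without Control 1 or Control 2, 0 of these relatives passed. Of the neuron markers 3 and 2 fell when Control 1 or Control 2 was left out, and 18 and 11 when DCKO 1 or DCKO 2 was. DESeq2 called 14 lower and library totals 13.

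Among the other relatives, the helix-loop-helix genes Bhlha15 (2.12), Scx (0.60), Tcf15 (0.38), Ferd3l (-0.22) and Msc (-0.63) had these log2 fold changes and did not pass. Snai3 (3, 0, 3 and 6 counts), Hand1 (0, 0, 8 and 16), Hand2 (0, 0, 3 and 5), Tcf21 (0, 3, 3 and 4) and Figla (0 in all) were too scarce to test.

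TWIST proteins dimerise with E proteins, and Id proteins sequester E proteins and so limit such dimers. Of 7 genes for E proteins and Id proteins, 0 rose and 4 fell, with a median log2 fold change of -0.90. The E protein gene Tcf3 fell from 207 and 205 CPM in Control to 97.8 and 108 in DCKO (log2 fold change -0.9989, SE 0.15, edgeR adjusted p 0.0176). Tcf4, at 52.1 and 64.3 CPM in Control against 80.7 and 93.8 in DCKO (0.58, adjusted p 0.0855), and Tcf12 (-0.39, adjusted p 0.243) did not pass. Id3 went from 255 and 232 to 74.8 and 119 CPM and fell by 1.33 (SE 0.26, adjusted p 0.0280). Id2 fell by 0.90 (SE 0.18, adjusted p 0.0310) and Id4 by 1.72 (SE 0.43, adjusted p 0.0498), while Id1 had -0.73 (adjusted p 0.134). Id4 is a borderline call that did not pass with upper-quartile scaling, without X and Y genes, with unfiltered TPM or without DCKO 2. On TPM with a pseudocount of 0.1, Tcf3, Id2 and Id3 did not pass and 1 of the 7 genes fell, while DESeq2 called Tcf4 higher (adjusted p 0.0396). Of 20 neural progenitor markers 13 fell in the same libraries, with a median log2 fold change of -1.64. Their summed level was 3876 and 4265 CPM in Control against 2863 and 2641 in DCKO. These sums include Vim, which was at 862 and 995 CPM in Control against 1710 and 1301 in DCKO. The sum of the other progenitor markers therefore fell more. The part of these markers in the fall of the Id genes and Tcf3 was not tested. Without Control 1 or Control 2, 0 of the 7 passed, and 5 of the progenitor markers fell.

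Snail and Zeb factors repress through corepressors, among them CTBP proteins, histone deacetylases, the LSD1 complex, Polycomb proteins and LIM proteins of the Ajuba family. Of 12 such genes, 1 rose and 2 fell, beside 8.93% of all tested genes higher and 8.11% lower. The median of the 12 was -0.14. With library totals it was -0.49, when the median of all tested genes was -0.32. Ctbp1 fell by 0.66 (SE 0.15, edgeR adjusted p 0.0373) on the log2 scale, from 200.4 and 205 CPM to 127.7 and 128.4, and Ctbp2 had -0.09 (adjusted p 0.704). The Ajuba family split, as Limd1 fell by 0.85 (SE 0.15, adjusted p 0.0244), Wtip rose by 1.25 (SE 0.29, adjusted p 0.0401) and Ajuba went from 104 and 80.9 CPM to 117.5 and 274 (1.08, adjusted p 0.125). Wtip did not pass with library totals or on TPM. With library totals 4 genes of the list fell, beside 3744 of all 19207 tested genes. With a pseudocount of 0.1 on TPM, 0 of the 12 passed, Ctbp1 and Limd1 included. DESeq2 called 2 higher and 4 lower. Log2 fold changes were 0.29 for Kdm1a, which encodes LSD1, -0.45 for Rcor1, 0.01 for Hdac1, -0.16 for Hdac2, -0.58 for Sin3a, -0.12 for Ezh2 and -1.06 for Suz12, and none of these passed. Without Control 1 or Control 2, 0 of the 12 passed.

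The amount of Snail protein is set largely by phosphorylation and degradation. Of 13 genes in that process, 0 rose and 3 fell, with a median of -0.36. Over all tested genes 8.93% were higher and 8.11% lower. The 13 include Lats2, itself floxed in DCKO, which did not pass. Fbxl14, a ubiquitin ligase subunit for Snail factors, fell by 1.04 (SE 0.18, edgeR adjusted p 0.0207), Gsk3b, the kinase that marks SNAI1 for destruction, by 0.78 (SE 0.15, adjusted p 0.0288) and Pak1, a kinase that phosphorylates SNAI1, by 0.82 (SE 0.18, adjusted p 0.0368). Protein was not measured. Without Control 1 or Control 2, 0 of these 13 passed, and without DCKO 2, 5 fell. Library totals gave 5 lower with a median of -0.70, when 3744 of all 19207 tested genes were lower and their median was -0.32. TPM with a pseudocount of 0.1 gave 0, and the median of the list was -0.09 without DCKO 1.

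Of 16 other transcription factors linked to EMT or to epithelial identity, 14 were tested, 4 rose and 0 fell, with a median of 1.48. Foxc1 (1.57, SE 0.19) and Foxc2 (2.01, SE 0.35), forkhead genes of cranial mesenchyme, rose. So did Ets1 (1.39, SE 0.30) of crest and endothelium and Tfap2a (2.35, SE 0.31) of crest and surface ectoderm. Their edgeR adjusted p-values were 0.0117 to 0.0346. Foxc1 and Foxc2 are also counted in the cranial mesenchyme list below, and Ets1 and Tfap2a in the neural crest list. These lists are therefore not separate readouts. Without DCKO 1, 11 of this list passed, and without Control 1 or Control 2, 0 did. DESeq2 called 8 higher, and TPM with a pseudocount of 0.1 gave 1.

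Of 18 ligands, receptors and mediators of TGF-beta, BMP, Wnt and other signals known to induce them, 5 rose and 1 fell. Over all tested genes 8.93% were higher and 8.11% lower. The median of the 18 was 0.19 (-0.16 with library totals and -0.06 on unfiltered TPM). Bmp4 (2.61, SE 0.23), Tgfb2 (2.60, SE 0.19) and Bmp7 (1.92, SE 0.16) had the smallest p-values among the ligands, and Notch1 fell by 1.16 (SE 0.15), with edgeR adjusted p-values of 0.00602 to 0.0129. Without Control 1, 3 rose, and without Control 2, 1 rose, and 0 fell in either case. Library totals gave 5 lower, beside 3744 of all 19207 tested genes, and DESeq2 gave 8 higher and 2 lower.

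Genes that these factors are known to repress were among those that rose. Of 28 epithelial genes that Snail, Zeb or Twist factors are known to repress, 27 were tested, 19 rose and 0 fell, with a median log2 fold change of 3.08. Cdh1 itself went from 5.77 and 5.02 CPM in Control to 87.8 and 42.6 in DCKO (3.60, SE 0.39, edgeR adjusted p 0.00927). The members with the smallest p-values were the keratin Krt18 (4.63, SE 0.30), the laminin chain Lama5 (3.34, SE 0.22), the claudin Cldn4 (7.34, SE 0.49) and the membrane protease St14 (5.61, SE 0.39). Surface ectoderm, the epithelium that lies over the neural tube, expresses many of them. Its marker list shares Krt8, Krt18, Krt19, Epcam, Cdh1 and Esrp1 with the epithelial list. All of these shared genes rose, so the lists are not separate readouts. Of 19 surface ectoderm markers 11 rose and 0 fell. Those markers summed to 51.9 and 67.4 CPM in Control against 414 and 543 in DCKO, and the part of that tissue in the rise of the epithelial genes was not tested. Without Control 1, 11 epithelial genes and 8 of those markers rose, and without Control 2, 8 and 6.

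Among 22 mesenchymal genes 21 were tested, and 18 of them rose and 0 fell (median log2 1.98). The fibronectin gene Fn1 went from 252 and 241 CPM to 1034 and 915 and rose (1.98, SE 0.16, edgeR adjusted p 0.00684). Acta2, smooth muscle actin (5.42, SE 0.45), Mmp2, a matrix protease (1.95, SE 0.17), and Pdgfrb, a receptor of mural and mesenchymal cells (2.14, SE 0.19), rose too. The mesenchymal list shares Acta2, Tagln and Pdgfrb with the mural list below. It shares Pdgfra, Col1a1 and Col3a1 with the cranial mesenchyme list. All of these shared genes rose, so these lists are not separate readouts either. Cdh2, N-cadherin, the cadherin of neuroepithelium and of mesenchyme, was at 320 and 293 CPM in Control against 309 and 356 in DCKO (0.12, SE 0.16, adjusted p 0.642). These groups overlapped, and the difference was -0.23 with library totals and -0.12 on TPM. Vim, which encodes the filament protein vimentin, was at 862 and 995 CPM in Control against 1710 and 1301 in DCKO (0.70, SE 0.20, adjusted p 0.0702) and missed the threshold. Without Control 1, 7 mesenchymal genes rose, and without Control 2, 4.

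**Figure D4:**
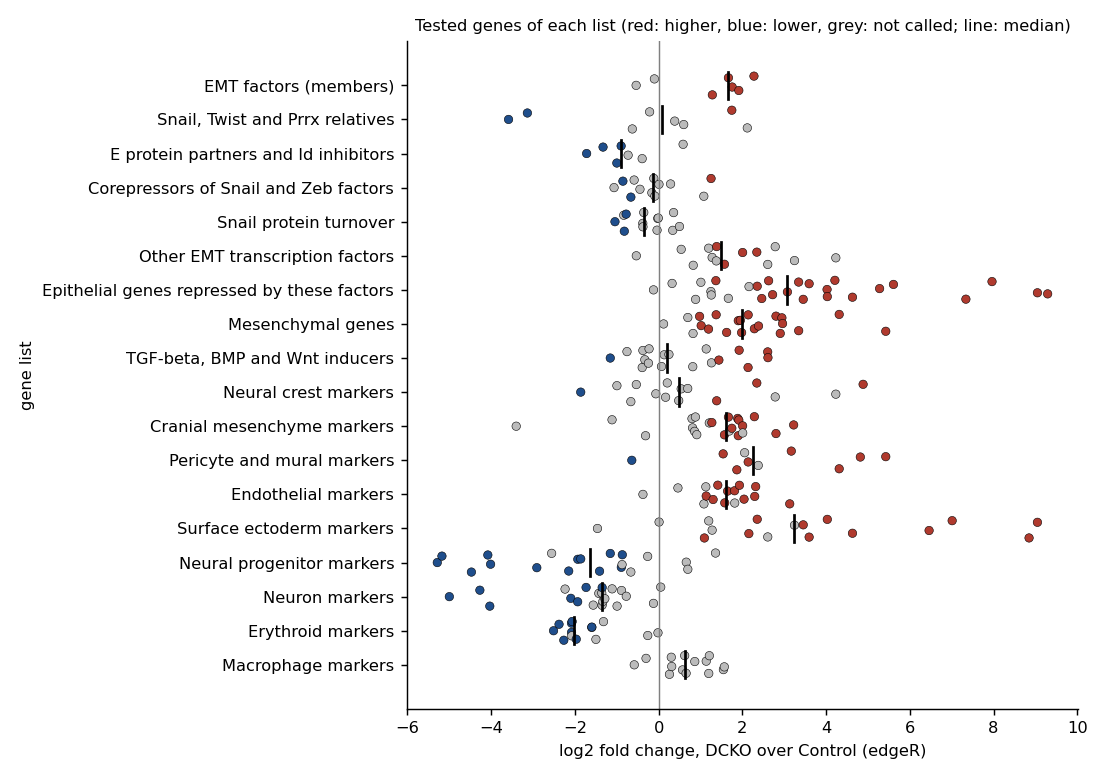
Log2 fold change of DCKO over Control (horizontal axis, edgeR) of each tested gene in the factor list, the lists of their relatives, partners and targets, and the marker lists (rows), with the list median as a black line. Red points rose, blue points fell and grey points did not pass. Most epithelial genes and the mesenchymal genes lie to the right of 0, with medians of 3.08 and 1.98.

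Several of the factors that rose are also markers of cell types. Twist1 and Prrx1 belong to the cranial mesenchyme list. Of its other 22 genes, 9 rose and 0 fell, with a median log2 fold change of 1.42 over the 20 tested, and Dpt was at 0 in all libraries. Their summed level was 556 and 604 CPM in Control, 3594 in DCKO 1 and 1691 in DCKO 2. The collagen genes Col1a1 and Col3a1 made up most of these sums, and without them, a choice made after seeing the values, the sums were 156 and 185 CPM in Control, 514 in DCKO 1 and 443 in DCKO 2. In CPM, Twist1, Prrx1 and Snai2 were higher in DCKO 1 than in DCKO 2. Of the 22 marker genes 8 were, and 13 were higher in DCKO 2. For Twist1, Prrx1 and Snai2 the log2 ratio of DCKO 2 over DCKO 1 was -0.34, -0.42 and -0.35 in CPM. In the authors' TPM it was only -0.10, -0.05 and -0.12, so the order was the same while the gap was smaller. The mesenchymal patterning genes Alx1 (0.799 and 2.53 CPM in Control, 11.0 and 20.0 in DCKO) and Pdgfra (33.5 and 35.3, then 164 and 93.2) rose. The part of mesenchyme in the rise of the 5 factors was not tested. Without Control 1, 0 genes of the full list rose, and without Control 2, 1.

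Snai1 was higher in DCKO 2. The pericyte and mural markers summed to 231 and 222 CPM in Control, 577 in DCKO 1 and 801 in DCKO 2, an order set by the smooth muscle genes Acta2 and Tagln. Those were left out after seeing the values. The sums were then 217 and 210.4 CPM in Control, 332 in DCKO 1 and 277 in DCKO 2, and 6 of the 11 markers were higher in DCKO 1. Notch3 made up most of these Control sums, at 176.5 and 171.1 CPM, and was at 104.1 in DCKO 1 and 118.8 in DCKO 2. The sum of the other mural markers therefore rose more. The median log2 fold change of the 10 tested pericyte and mural markers was 2.26. Of 19 surface ectoderm markers 12 were higher in DCKO 2, and without the keratins Krt8 and Krt19 they summed to 295 CPM in DCKO 1 and 287 in DCKO 2. Of 11 pericyte markers 7 rose and 1 fell. Endothelial markers, 11 of 16 of which rose, summed to 243 and 230 CPM in Control, 1039 in DCKO 1 and 621 in DCKO 2. Of 14 macrophage markers 0 passed edgeR, 1 had an unadjusted p under 0.05 and 1 was called by DESeq2. They summed to 39.2 and 54.8 CPM in Control, 125 in DCKO 1 and 40.4 in DCKO 2, and 6 passed without DCKO 2. Erythroid markers, 8 of 14 of which fell, went from 2753 and 3943 to 981 and 857 CPM. Without Control 1 and without Control 2, 3 and 2 pericyte, 1 and 0 endothelial and 6 and 2 erythroid markers passed. The part of these cell types in the rise of the factors was not tested.

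Of 16 neural crest markers 15 were tested, 3 rose and 1 fell, beside 8.93% of all tested genes higher and 8.11% lower. Ets1 and Tfap2a, which rose, are also in the list of other EMT factors. The median of the crest markers was 0.48, and they summed to 790 and 741 CPM in Control against 931 and 717 in DCKO. That overlap rests on Crabp1, which had 457.5 and 385 CPM in Control, 569 in DCKO 1 and 235 in DCKO 2. Without Crabp1, left out after seeing the values, the sums were 332 and 356 CPM in Control against 362 and 482 in DCKO, which did not overlap. The crest genes Sox10 (1.49 and 2.21 CPM in Control, 1.38 in DCKO 1, 24.1 in DCKO 2) and Foxd3 (0.256 and 0.435, then 0.725 and 12.3) were far higher in DCKO 2 than in the other libraries and did not pass. Pax7, of the dorsal neural tube and early crest, fell by 1.86 (SE 0.20, edgeR adjusted p 0.00927) on the log2 scale, while the receptor gene Erbb3, of crest and glial precursors, rose by 4.88 (SE 0.75, adjusted p 0.0176). Without DCKO 1, 8 of the list were called higher and 3 lower, without DCKO 2, 3 and 2, and without Control 1 or Control 2, 0 were called. Library totals gave 2 higher and 3 lower.

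**Figure D5:**
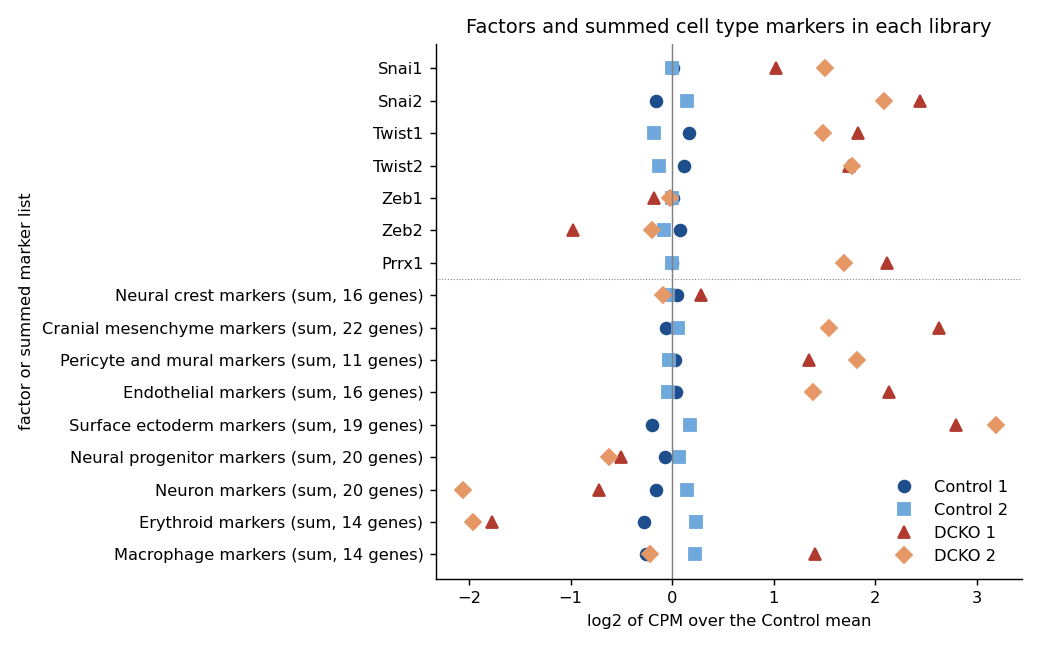
Log2 of CPM over the Control mean (horizontal axis) in each library, for the 7 factors (above the dotted line) and for summed marker lists without the factors (below it). The cranial mesenchyme sum, mostly collagen, is higher in DCKO 1 (2.63) than in DCKO 2 (1.54), while Snai1 is higher in DCKO 2 (33.4 CPM) than in DCKO 1 (24.1 CPM).

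Genes whose levels followed each factor most closely across the 4 libraries were found by the root mean square difference of centred log2 CPM among 12059 genes. For Twist1 they were Uaca (0.0186) and Reck (0.0520), for Prrx1 Phkg1 (0.0363) and Slc9a5 (0.0587), for Snai1 Slc1a4 (0.0310) and Angpt1 (0.0341), for Snai2 Tcirg1 (0.0373) and Slit3 (0.0637), for Twist2 Snhg1 (0.0212) and Asns (0.0303), for Zeb1 Pafah2 (0.00662) and Pdxp (0.00829), and for Zeb2 Slc20a2 (0.0138) and Plxna1 (0.0201). With only 4 libraries in 2 groups, this likeness is a description.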

How the data were processed

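Polyadenylated RNA, per the labels, was sequenced from 2 Control and 2 DCKO cranial neural tubes on an Illumina instrument after stranded library preparation. The authors deposited a table of counts per Ensembl gene (no scaling), a table of TPM per gene and a table of log2 fold changes with p-values and false discovery rates. Tools listed in the submitters' processing notes are StringTie, TopHat2 (2.1.1), limma (3.30.13), edgeR (3.16.5) and R (3.3.2), with genome build GRCm38 (also given as mm10). How genes were counted and whether strand was used are not given in the sources used here.

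Of 54532 gene IDs, 54409 matched a symbol. Coordinates are GENCODE M21 (GRCm38). Counts were analysed with edgeR 4.0.16 in R 4.3.3: filterByExpr (minimum count 10, minimum total 15), TMM scaling, and a two-sided quasi-likelihood test of group with Benjamini-Hochberg adjustment over all 19207 tested genes at 0.05. SE was derived from the fold change and F. Alternatives used DESeq2 1.42.0 and limma 3.58.1. The script was tested on simulated data. Upstream motif matches used RefSeq starts.

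The factors and gene lists were chosen with earlier results of these data known. Named genes were the 7 factors, their overlapping genes, up to 4 called genes per list by p-value, and in full the lists of relatives, partners and corepressors. Alx1, Pdgfra, Cdh1, Cdh2, Vim, Sox2, Dbx2, Sox10, Foxd3, Col1a1, Col3a1, Crabp1, Krt8, Krt19, Epcam, Esrp1 and Notch3 were added after their values were seen. The labels do not say whether the replicate numbers pair embryos. With so few libraries per group, the correlation of same-numbered deviations (-0.04) cannot decide it.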

Additional observations from a re-analysis of the deposited data

How the results depend on the processing

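The 7 factors kept their direction under all 15 alternatives, and the calls of Snai1, Snai2, Twist1, Twist2 and Prrx1 held with DESeq2, other edgeR scalings, no filter, and without the ribosomal cluster or the X and Y genes. In the fit with the replicate block the same 5 were higher, while all genes gave 1002 higher and 776 lower against 1716 and 1558. In the block fit 0 corepressor genes, 1 Snail turnover gene (lower) and 2 E protein and Id genes (lower) passed, Ctbp1, Limd1, Wtip, Gsk3b, Pak1, Id2 and Id4 being lost. DESeq2 gave 2602 and 2594, and library totals gave 3744 lower and a shift of -0.35 in the median gene. Limma on unfiltered log2(TPM + 1) called 0 factors, 0 genes of the other lists, 1 gene higher and 1 lower, with log2 fold changes of 0.97 for Snai1, 1.57 for Snai2, 1.38 for Twist1, 1.27 for Twist2 and 1.37 for Prrx1. With a mean TPM of at least 1, Snai1 had 0.97 and 1.02 at pseudocounts of 1 and 0.1 and was not called, with 998 and 774 genes higher and, at 0.1, 978 lower, and shifts of -0.21 and -0.24 in the median gene. The cause of these changes was not tested.

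Leaving out single libraries gave 0 to 5 factors higher and 0 to 1 lower, and 155 to 2619 genes higher and 72 to 2565 lower. The lone library of a group is then assumed to vary like the other group. Log2 fold changes ranged from 1.02 to 1.49 for Snai1, 2.08 to 2.44 for Snai2, 1.47 to 1.84 for Twist1, 1.61 to 1.88 for Twist2, 1.68 to 2.11 for Prrx1 and -0.98 to -0.21 for Zeb2. Uncalled genes that changed sign were Msc (-2.08 to 0.0879), Ferd3l (-0.549 to 0.16), Kdm1a (-0.0445 to 0.55), Hdac1 (-0.0731 to 0.0556), Hdac2 (-0.39 to 0.0281) and Ezh2 (-0.26 to 0.0021). With library totals, Kdm1a had -0.0638, Hdac1 -0.34 and Cdh2 -0.23. On TPM these were -0.13, -0.20 and -0.12, and Hdac1 had -0.0228 without the filter. Of 765 list values, 592 stayed within their spread or within 1.5 times.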

Other observations

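MicroRNAs of the miR-200 family and miR-205 are textbook repressors of Zeb1 and Zeb2. Their gene models Mir200a, Mir200b, Mir200c, Mir141, Mir429 and Mir205 were at 0 counts in all 4 libraries, which were not made to capture mature microRNAs. Longer RNAs that overlap those loci, chosen after their values were seen, were scarce. The noncoding RNA 4631405K08Rik, over Mir205, had 0 counts in both Control libraries, 15 in DCKO 1 and 48 in DCKO 2. It was called higher (log2 fold change 8.32, SE 1.49, edgeR adjusted p 0.0312), a size that rests on 0 counts in Control. Ttll10 and Gm13648, over the Mir200a, Mir200b and Mir429 cluster, had 0 in Control, 12 and 0 in DCKO 1, and 3 and 6 in DCKO 2. Within Zeb2, the small RNA model Gm27761 on the opposite strand had 58 and 43 counts in Control and 2 in each DCKO library (log2 fold change -4.03, SE 0.63, edgeR adjusted p 0.0180), while Zeb2os around it had 405, 327, 276 and 205 counts.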
